A study of Mus musculus with 9 samples.

Results

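Ventricular RNA of Arid1a mutant and control mice was examined for 10 genes that encode core cardiac transcription factors: Gata4, Gata5 and Gata6, the homeobox gene Nkx2-5, the T-box genes Tbx2, Tbx3, Tbx5 and Tbx20, and the basic helix-loop-helix (bHLH) genes Hand1 and Hand2. They were chosen by name from the 38293 genes of the count table, with earlier results of these data known, and all 10 were found in it. All libraries came from the ventricles of pups at postnatal day 7 (P7), of mouse lines kept on a C57B/6 J background (spelled as in the methods), with males and females included. The 5 control libraries came from Arid1a f/f littermates, which carry the floxed allele on both chromosomes and no Cre. The 4 cKO libraries came from αMHC-Cre;Arid1a f/f pups, in which the promoter of the α myosin heavy chain gene drives Cre recombinase in cardiomyocytes, so that the other cells of the ventricle keep the gene. ARID1A belongs to SWI/SNF, a complex that moves nucleosomes, where it binds DNA, and the comparison asked how its loss from cardiomyocytes changes expression in the neonatal heart.

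The GATA, NKX2-5, T-box and HAND proteins bind DNA together at cardiac enhancers and switch on the genes for contraction, conduction and the natriuretic peptides. They form a network in which several members regulate each other, and a change in the dose of GATA4, NKX2-5, TBX5 or TBX20 causes congenital heart defects. Not all of them act as activators: TBX2 and TBX3 are repressors, which keep working-myocardium genes off in the atrioventricular canal and the conduction system.

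Of the 10 genes, 9 had enough counts to be tested and 5 were lower in cKO ventricles at an adjusted p under 0.05: Gata6, Tbx3, Tbx5, Tbx20 and Hand2. None of the 9 passed as higher. The changes of these 5 ranged from −25.1% for Tbx20 to −32.8% for Tbx5. The median log2 fold change of the 9 tested genes was −0.42, against 0.01 for all 15318 genes tested. Gata4, the most highly expressed of the 10 per kilobase, measured 210 CPM in controls and 212 CPM in cKO. Levels are counts per 1000000 counts of the scaled library total (CPM), and p-values come from edgeR's quasi-likelihood test, with Benjamini-Hochberg adjustment over every gene tested.

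These counts were read against the whole table. A fall at an adjusted p under 0.05 was seen for 8.03% of the tested genes, a rise for 8.25% and either for 16.3%. Among genes with a mean of at least 10 CPM, as 8 of the 9 tested members have, 10.1% fell. The study's own criterion also asks for a fold change over 1.5, a log2 fold change of 0.585 in either direction, which 6.72% of the tested genes met. By edgeR 0 of the 9 members met it, although 5 had an unadjusted p under 0.05, and by DESeq2 the number was also 0. In 4 members, Gata6, Tbx5, Tbx20 and Hand2, all cKO libraries were lower than all controls, which held for 8.58% of all tested genes.

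Total counts ranged from 31011055 to 40073801 per library. Arid1a itself measured 128 to 148 CPM in controls and 100 to 113 CPM in cKO libraries, −0.39 on the log2 scale (adjusted p = 0.00132), in a count that covers the whole gene and every cell type of the ventricle. The libraries fell into sets by the level of the ribosomal protein pseudogene Rps3a3, which was under 10 CPM in control replicates 1 and 2 and cKO replicates 1 to 3 and 99.7 to 112 CPM in control replicates 3 to 5 and cKO replicate 4. What the sets are is not given in the sources used here. Values within each set are given where they bear on a member. In RNA of whole ventricles, fewer cells of a type cannot be told apart from less RNA per cell. Summed cardiomyocyte markers ranged from 38770 to 45620 CPM in controls and 35131 to 39805 CPM in cKO, and 1 of 6, Myl2, passed the test, lower in cKO. Summed fibroblast markers ranged from 6923 to 8213 CPM in controls and 8559 to 9507 CPM in cKO, and 4 of 8 (Col1a1, Col1a2, Tcf21 and Postn) were higher. Of the other marker lists, the conduction system, atrial, endocardial and epicardial lists held genes that passed. Npr3, one of the 2 endocardial markers, rose, and the others are given below with Tbx3, Tbx5 and the paralogue Tbx18. None of the endothelial, mural, macrophage, lymphocyte, erythroid, Schwann cell and skeletal muscle markers tested passed, the 3 adipocyte markers were too low to test, and Myod1 of the skeletal muscle list was at 0 in all libraries. The part of these shifts in the results was not tested.

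Levels were first compared between members in control ventricles, as CPM per kilobase of exon (RPKM), which scales for gene length. The length is that of all annotated exons of a gene together, 3904 bases for Gata4 and 11997 bases for Tbx20. It can exceed that of the expressed transcript, and the order and the RPKM shares depend on it. Gata4 was highest at 53.7 ± 2.60 RPKM, followed by Tbx20 at 38.4 ± 3.06 RPKM, Gata6 at 20.2 ± 0.547 RPKM and Hand2 at 19.1 ± 2.42 RPKM (SD, n = 5). Gata4 lay above 95.5% of the tested genes on this scale and Hand2 above 85.3%. Nkx2-5 came next at 12.6 ± 3.62 RPKM, then Tbx5 at 5.26 ± 0.238 RPKM, Tbx2 at 3.77 ± 0.389 RPKM and Tbx3 at 2.62 ± 0.426 RPKM. Gata5 and Hand1 were barely detected, at 0.168 ± 0.0431 RPKM and 0.0833 ± 0.0435 RPKM. The ranges over the 5 controls of neighbours in this order did not overlap, except for Gata6 with Hand2, Hand2 with Nkx2-5 and Gata5 with Hand1. The 5 members that fell thus lay between rank 2 and rank 8 of the 10, and their control levels ranged from 2.62 to 38.4 RPKM.

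**Figure D1:**
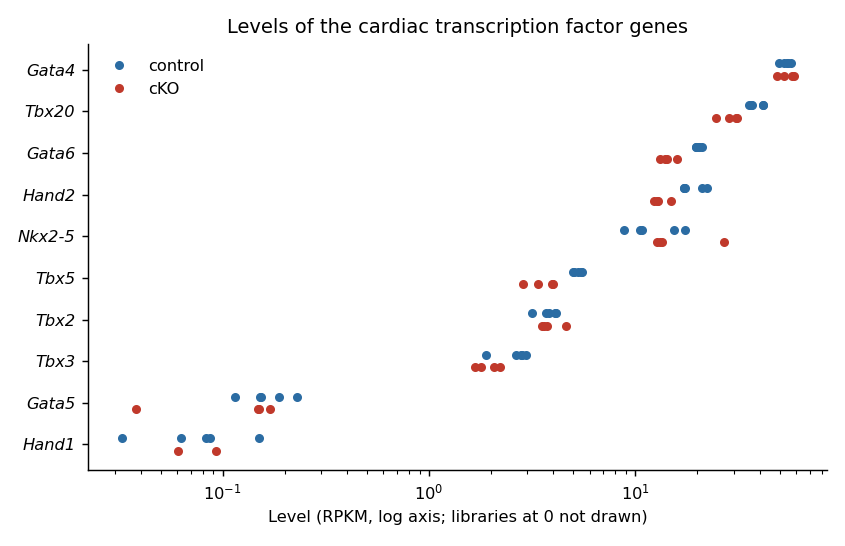
Level of each of the 10 genes per library in RPKM on a log axis, with control libraries in blue and cKO libraries in red. The order runs from Gata4 at a control mean of 53.7 RPKM to Hand1 at 0.0833 RPKM, and the cKO points of Tbx20, Gata6, Hand2 and Tbx5 lie to the left of all control points.

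The GATA factors are zinc finger proteins, of which GATA4 is required for formation of the heart tube and works with NKX2-5, TBX5 and MEF2 proteins on shared enhancers. Gata4 (ENSMUSG00000021944, chromosome 14, 63198922 to 63271692, minus strand) measured 221, 214, 213, 194 and 206 CPM in control replicates 1 to 5 and 190.3, 229, 205 and 224 CPM in cKO replicates 1 to 4. The cKO libraries lay on both sides of the controls, and the log2 fold change was 0.02 (SE 0.07, 95% interval −0.13 to 0.16, adjusted p = 0.898). In percent of the control level this interval runs from −8.74% to 12.1%.

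GATA6 overlaps with GATA4 in function and can replace it in part in the embryonic heart. Gata6 (ENSMUSG00000005836, chromosome 18, 11052064 to 11085635, plus strand) measured 136, 133, 128, 128 and 133 CPM in control replicates 1 to 5 and 104, 92.9, 91.0 and 86.1 CPM in cKO replicates 1 to 4. The groups did not overlap, with the highest cKO library at 104 CPM and the lowest control library at 128 CPM. The means were 132 ± 3.56 CPM (SD, n = 5) in controls and 93.4 ± 7.42 CPM (SD, n = 4) in cKO, which gave −0.50 (SE 0.06, 95% interval −0.63 to −0.36, adjusted p = 0.000243) as log2 fold change and a change of −29.1%. Controls varied by a CV of 2.71%, the smallest among the 10 genes. Within the Rps3a3-low libraries the log2 fold change was −0.49 and within the Rps3a3-high libraries, which hold 1 cKO library, it was −0.59. The noncoding gene 1010001N08Rik lies on the opposite strand and overlaps the 5′ end of Gata6 by 504 bases. Its own log2 fold change was −0.35 (adjusted p = 0.0667), at 10.2 to 13.0 CPM in the group means, so that it carries far fewer counts than Gata6.

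GATA5 is known from the endocardium and endoderm. Gata5 (ENSMUSG00000015627, chromosome 2, 180325133 to 180334699, minus strand) was close to the detection limit and measured 0.752, 0.377, 0.499, 0.503 and 0.614 CPM in control replicates 1 to 5 and 0.124, 0.557, 0.492 and 0.484 CPM in cKO replicates 1 to 4, which rest on 4 to 25 counts, and its log2 fold change was −0.39 (SE 0.38, 95% interval −1.21 to 0.44, adjusted p = 0.539). This interval runs from −56.7% to 35.6% of the control level, and a difference within it was not detectable at this depth. The antisense gene Gata5os, which overlaps Gata5, had at most 5 counts in a library and was not tested.

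As a share of the summed RPKM of the 3 GATA genes within each library, Gata6 made up 27.3% ± 0.720 (SD, n = 5) in controls and 20.96% ± 2.62 (SD, n = 4) in cKO, and Gata4 the remainder apart from about 0.2% of Gata5. The ratio of Gata6 to Gata4 within a library does not depend on how libraries are scaled. On a log2 scale of counts it was −0.67 ± 0.05 (SD, n = 5) in controls and −1.18 ± 0.22 (SD, n = 4) in cKO, and 4 of 4 cKO libraries lay below the lowest control. The difference was −0.51. This ratio and those of the T-box genes were picked after the levels had been seen, from members that fell and members that did not pass. They are given as a description, and no p-value is reported for them.

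NKX2-5 is a homeodomain protein, one of the earliest markers of cardiac progenitors and a partner of GATA4 and TBX5. Nkx2-5 (ENSMUSG00000015579, chromosome 17, 26838664 to 26845009, minus strand) measured 29.9, 26.4, 18.6, 15.1 and 18.2 CPM in control replicates 1 to 5 and 23.1, 46.5, 21.9 and 22.6 CPM in cKO replicates 1 to 4. cKO replicate 2 was far above every other library, and the other 3 cKO libraries lay within the range of the controls. The means were 21.7 ± 6.22 CPM (SD, n = 5) in controls and 28.5 ± 12.0 CPM (SD, n = 4) in cKO, and the log2 fold change of 0.40 (SE 0.28, 95% interval −0.25 to 1.04, adjusted p = 0.394) fell to 0.06 without cKO replicate 2. Control levels also differed between the library sets, with 26.4 and 29.9 CPM in the 2 Rps3a3-low controls and 15.1 to 18.6 CPM in the 3 Rps3a3-high controls. Nkx2-5 was the least evenly expressed of the 8 well-detected members, with a CV of 28.7% in controls and 42.0% in cKO.

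**Figure D2:**
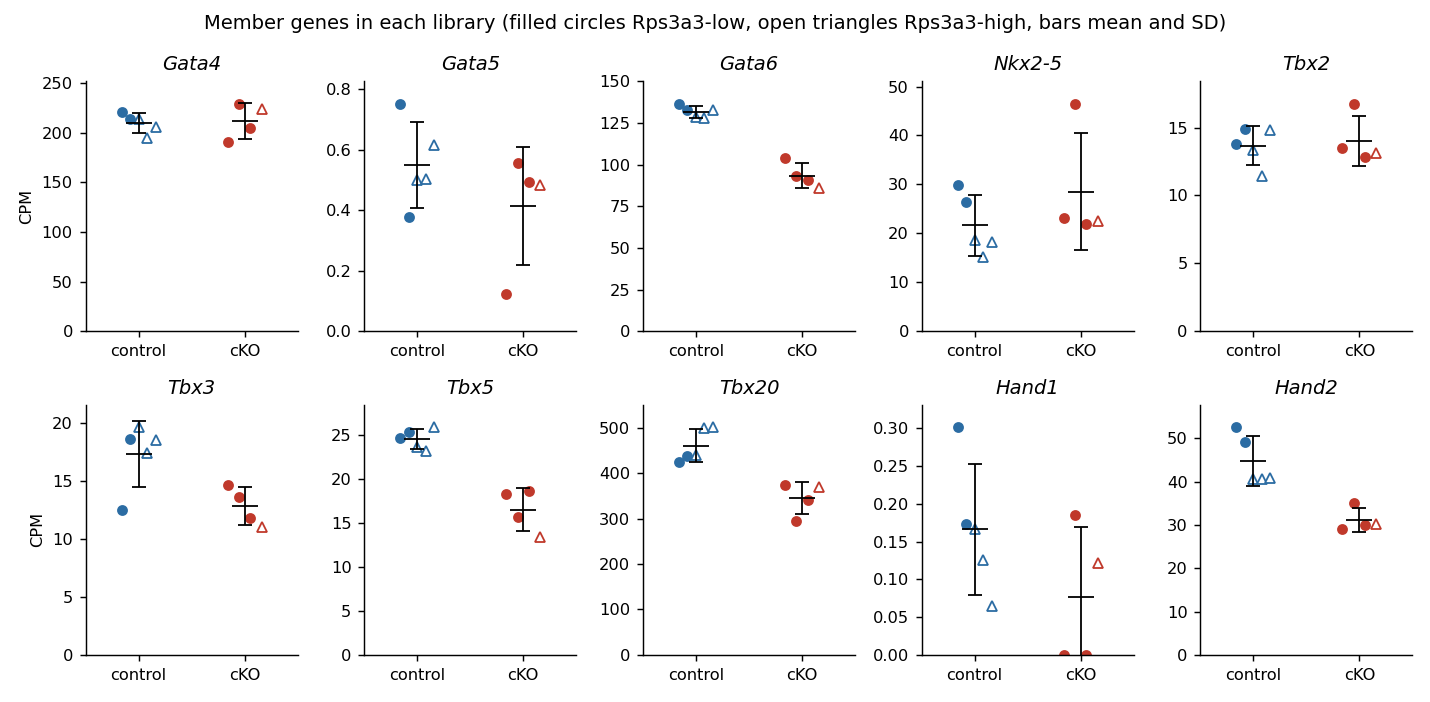
CPM of each of the 10 genes in 5 control and 4 cKO libraries, with axes from 0, filled circles for Rps3a3-low and open triangles for Rps3a3-high libraries, and bars for the mean and SD. Gata6, Tbx5, Tbx20 and Hand2 show no overlap between the groups, Gata4 and Tbx2 overlap between them, and 1 cKO library stands out for Nkx2-5 at 46.5 CPM.

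The T-box genes encode factors that bind a shared DNA motif with opposite outcomes. TBX5 and TBX20 act in the working myocardium, where TBX5 activates Nppa, Gja5 and other genes with NKX2-5 and GATA4, and TBX20 is required for chamber growth and adult heart function. Tbx5 (ENSMUSG00000018263, chromosome 5, 119832668 to 119885219, plus strand) measured 24.7, 25.4, 23.7, 23.2 and 25.9 CPM in control replicates 1 to 5 and 18.4, 15.7, 18.7 and 13.4 CPM in cKO replicates 1 to 4. Every cKO library lay below the lowest control, and the means were 24.6 ± 1.11 CPM (SD, n = 5) in controls and 16.5 ± 2.47 CPM (SD, n = 4) in cKO. The log2 fold change of −0.57 (SE 0.10, 95% interval −0.79 to −0.35, adjusted p = 0.00233) was the largest among the tested members. Taken by library set, it was −0.51 (low) and −0.86 (high). Atrial tissue holds more Tbx5 than the ventricle, and of the 4 atrial markers 3 were tested and 1 passed, Myl7, which rose by 1.20 on the log2 scale (adjusted p = 0.00493). Sln measured −1.25 (adjusted p = 0.262) and Myl4 0.17 (adjusted p = 0.71), and the median of the 3 was 0.17. The summed atrial markers ranged from 60.5 to 137 CPM in controls and 127 to 190.0 CPM in cKO, while Tbx5 was lower in cKO, and their part in the Tbx5 value was not tested. Tbx5 lay just short of the 1.5-fold threshold, and passed it when the library set was a term of the model (log2 fold change −0.64, adjusted p = 0.000613).

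Tbx20 (ENSMUSG00000031965, chromosome 9, 24718138 to 24774303, minus strand) had the highest CPM of the 10 genes. It measured 425, 438, 439.9, 500.2 and 501 CPM in control replicates 1 to 5 and 374, 296, 342 and 369 CPM in cKO replicates 1 to 4. The groups did not overlap, with the highest cKO library at 374 CPM and the lowest control library at 425 CPM. Means of 461 ± 36.8 CPM (SD, n = 5) in controls and 345 ± 35.7 CPM (SD, n = 4) in cKO corresponded to −0.42 (SE 0.08, 95% interval −0.60 to −0.24, adjusted p = 0.00499) on the log2 scale. The log2 fold change within the sets was −0.36 and −0.38. In the 5 Rps3a3-low libraries alone the test was not passed (adjusted p = 0.1).

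TBX3 patterns the conduction system and is a repressor. Tbx3 (ENSMUSG00000018604, chromosome 5, 119670669 to 119684724, plus strand) measured 12.5, 18.6, 19.6, 17.4 and 18.5 CPM in control replicates 1 to 5 and 14.7, 13.7, 11.8 and 11.1 CPM in cKO replicates 1 to 4. Here the groups overlapped, because control replicate 1 lay below 2 of the 4 cKO libraries. The log2 fold change was −0.44 (SE 0.14, 95% interval −0.73 to −0.14, adjusted p = 0.0473). The call was close to the threshold. It was kept when control replicate 1 was left out (adjusted p = 0.00598) or when cKO replicate 1 was (adjusted p = 0.0358), and lost without any other single library (adjusted p up to 0.126), and the log2 fold change was −0.21 in the Rps3a3-low set and −0.74 in the other. Of the 6 conduction system markers, 5 were tested and 3 fell: Hcn4, the pacemaker channel gene, by 3.11 on the log2 scale, the Purkinje marker Cntn2 by 1.83 and Cpne5 by 1.24. Their summed level ranged from 24.3 to 33.9 CPM in controls and 13.3 to 21.2 CPM in cKO, and its part in the Tbx3 value was not tested. The antisense gene Tbx3os1 overlaps Tbx3 by 697 bases and measured 0.786 and 0.590 CPM in the group means (log2 fold change −0.43, adjusted p = 0.449).

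TBX2 is the second repressor, known from the atrioventricular canal. Tbx2 (ENSMUSG00000000093, chromosome 11, 85832551 to 85841948, plus strand) measured 13.8, 14.9, 13.4, 11.4 and 14.8 CPM in control replicates 1 to 5 and 13.5, 16.8, 12.8 and 13.1 CPM in cKO replicates 1 to 4. The ranges of the groups overlapped, and the log2 fold change was 0.04 (SE 0.11, 95% interval −0.20 to 0.28, adjusted p = 0.859). In percent of the control level the interval runs from −13.2% to 21.3%.

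With Tbx2 as the denominator, the other T-box genes were compared within each library. The log2 ratio of Tbx5 to Tbx2 was 0.85 ± 0.10 (SD, n = 5) in controls and 0.23 ± 0.31 (SD, n = 4) in cKO, and that of Tbx20 to Tbx2 was 5.08 ± 0.22 and 4.62 ± 0.32. In both, 4 of 4 cKO libraries lay below the lowest control, with differences of −0.62 and −0.45. For Tbx3 to Tbx2 the difference was −0.46 and 2 of 4 cKO libraries lay below the lowest control. Of the summed RPKM of the 4 T-box members, Tbx20 made up 76.7% ± 1.79 (SD, n = 5) in controls and 75.3% ± 3.30 (SD, n = 4) in cKO, while the RPKM share of Tbx2 was 7.57% ± 0.941 and 10.2% ± 2.05. Tbx3 and Tbx5 are neighbours on chromosome 5, 147.9 kb apart.

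**Figure D3:**
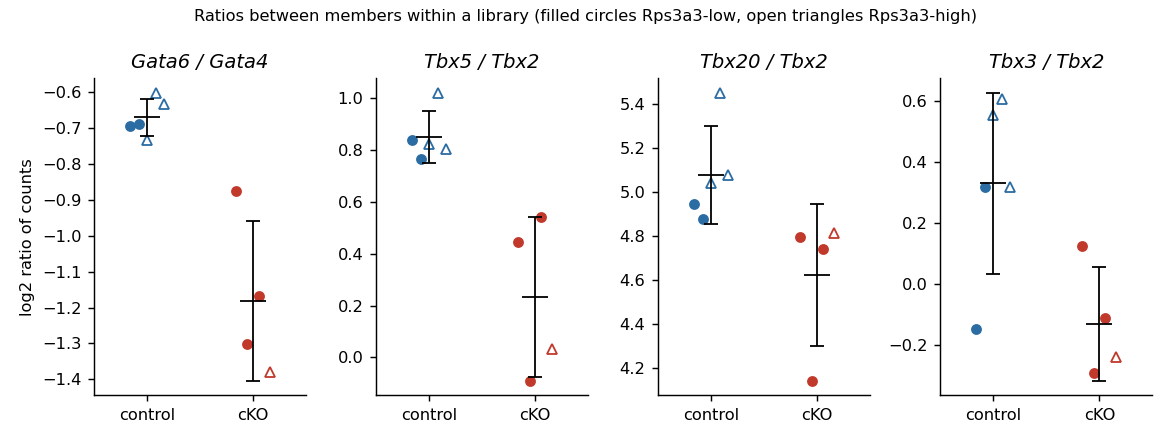
Log2 ratio of the counts of pairs of members within each library, with the mean and SD per group, and axes that do not start at 0. All 4 cKO libraries lie below the controls for Gata6 to Gata4, Tbx5 to Tbx2 and Tbx20 to Tbx2, and 1 control library lies among the cKO libraries for Tbx3 to Tbx2.

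HAND1 and HAND2 are bHLH proteins that bind DNA as dimers with E proteins, and are known for the growth of the left and the right ventricle in the embryo. Hand2 (ENSMUSG00000038193, chromosome 8, 57320983 to 57324633, plus strand) measured 52.5, 49.3, 40.5, 40.7 and 41.0 CPM in control replicates 1 to 5 and 29.1, 35.1, 30.0 and 30.1 CPM in cKO replicates 1 to 4. The groups were apart, with cKO libraries at 35.1 CPM or less and controls at 40.5 CPM or more. Means were 44.8 ± 5.70 CPM (SD, n = 5) in controls and 31.1 ± 2.73 CPM (SD, n = 4) in cKO, and the log2 fold change was −0.53 (SE 0.10, 95% interval −0.74 to −0.31, adjusted p = 0.00331). In the Rps3a3-low set it was −0.70 and in the other −0.43, and control replicates 1 and 2 were higher than the other controls. With the library set as a term it was −0.59 (adjusted p = 0.000301). The antisense gene Hand2os1 overlaps Hand2 on the opposite strand and was not analysed here. Whether reads were counted by strand is not given in the sources used here, so its reads cannot be told apart from those of Hand2.

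Hand1 (ENSMUSG00000037335, chromosome 11, 57828705 to 57832818, minus strand) was not tested in the main comparison, because it had 10, 6, 6, 4 and 2 counts in control replicates 1 to 5 and 0, 7, 0 and 5 counts in cKO replicates 1 to 4. Its counts in cKO lay within 0 to 7 and in controls within 2 to 10, and in fits that kept it the log2 fold change was −1.09 (DESeq2, SE 0.94, adjusted p = 0.485) or −1.03 (edgeR without a filter, SE 0.80, adjusted p = 0.49). A difference was not detectable at this depth.

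**Figure D4:**
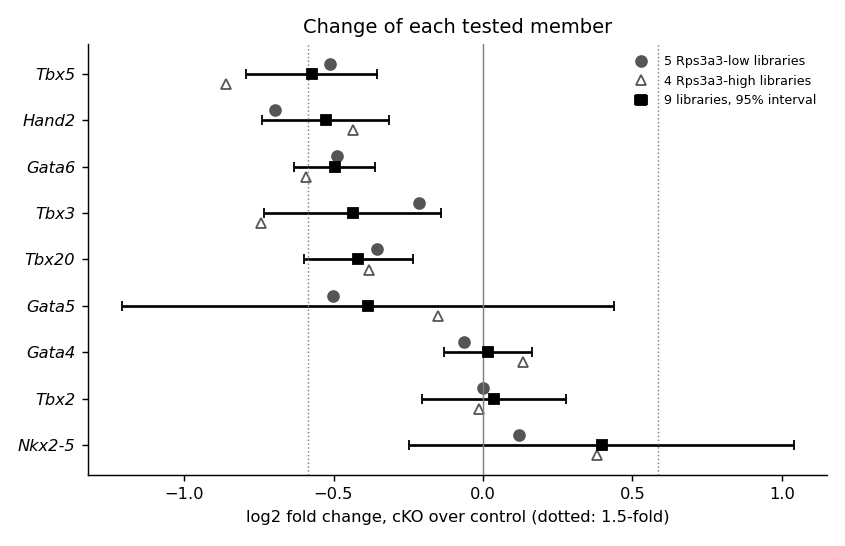
Log2 fold change of cKO over control for the 9 tested genes, with squares and 95% intervals from all 9 libraries and grey symbols for the values within the Rps3a3-low (circles) and Rps3a3-high (triangles) libraries. The intervals of Tbx5, Hand2, Gata6, Tbx3 and Tbx20 lie below 0, none of the squares passes the dotted lines at 1.5-fold, and those of Gata5, Gata4, Tbx2 and Nkx2-5 include 0.

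The DNA just upstream of the RefSeq start was read from a promoter table (GRCm38.p6) for 4 members, Gata5, Nkx2-5, Tbx20 and Hand2, and those of the other members were not used here. This start can differ from that of the gene spans given above. The Nkx2-5 window, chr17:26841566-26841815, lies inside the span of the gene. That of Gata5, chr2:180334680-180334929, runs into the 5′ end of its span. Tbx20 and Hand2 are shown because they were the ones of these that fell. Each sequence is the 250 bases before the annotated start, 5′ to 3′ on the strand of the gene, chr9:24774304-24774553 on the minus strand for Tbx20 and chr8:57320733-57320982 on the plus strand for Hand2. Capitals mark matches to the GATA motif.
Tbx20: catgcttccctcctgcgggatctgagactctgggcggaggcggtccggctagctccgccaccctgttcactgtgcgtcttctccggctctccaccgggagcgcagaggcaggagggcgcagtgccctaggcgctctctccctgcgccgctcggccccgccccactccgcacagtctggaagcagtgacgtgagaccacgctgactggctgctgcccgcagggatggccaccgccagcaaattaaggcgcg
Hand2: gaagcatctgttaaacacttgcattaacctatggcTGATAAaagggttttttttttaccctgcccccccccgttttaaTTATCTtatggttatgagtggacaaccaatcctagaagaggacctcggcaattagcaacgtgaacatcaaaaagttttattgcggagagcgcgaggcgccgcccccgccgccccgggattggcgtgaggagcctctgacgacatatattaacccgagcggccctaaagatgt
The GATA motif was searched on both strands in 4 spellings, which were AGATAA with its variant AGATAG, and TGATAA with its variant TGATAG. Of all promoter windows of this length in the table, 32851 in number, 26.5% held a match. Hand2 held 2, TGATAA at 215 bases and TTATCT, the reverse complement of AGATAA, at 172 bases before the start. Tbx20, Nkx2-5 and Gata5 held none. The T-box core AGGTGT, the NK2 motif TNAAGTG and the TEAD motif GGAATG, found in 11.8%, 10.1% and 12.6% of windows, were in none of the 4. The 2 matches in Hand2 do not overlap. The windows also differed in base composition, with a GC content of 68.8% for Tbx20 and 49.2% for Hand2. A match is a run of letters and not a site of binding.

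To see whether other genes near the members moved with them, the tested genes within 20 kb were examined. Around Gata4, Neil2, a DNA glycosylase gene 5066 bases away, rose from 1.61 to 2.76 CPM with no overlap between the groups (log2 fold change 0.78, SE 0.17, adjusted p = 0.00917), while Fdft1 measured a log2 fold change of −0.01. Bcas3 and 2610027K06Rik next to Tbx2 measured 0.02 and 0.05, Sap30l near Hand1 −0.10, 5033428I22Rik near Hand2 0.19 and Gm20468 near Nkx2-5 0.54 (adjusted p = 0.455). Neil2 was thus the only gene to pass among these and the neighbours 1010001N08Rik and Tbx3os1, given above, and it lies beside a member that did not. A pass in either direction was seen for 16.3% of all tested genes. A single pass among so few is not beyond that share, and no result about the neighbours is read from it.

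The paralogues of the members were examined next. Of 29 other GATA, T-box, NK2 and Twist-family genes, 11 had enough counts to be tested, 1 rose and none fell, beside 8.25% higher and 8.03% lower among all tested genes, and the median log2 fold change was 0.02. A share of 1 in 11 is near this background. The gene that rose was Tbx18, a T-box gene of the epicardium, its derivatives and the sinus node. It measured 18.4, 18.9, 22.4, 23.5 and 24.0 CPM in control replicates 1 to 5 and 35.2, 29.5, 24.8 and 39.4 CPM in cKO replicates 1 to 4, and every cKO library lay above the highest control, with 0.59 (SE 0.13, adjusted p = 0.00973) as log2 fold change. It was the only T-box gene among those tested here to pass in this direction. Of the 6 epicardial markers 1 passed, Wt1, which fell, and their summed level ranged from 22.9 to 87.1 CPM in controls and 21.4 to 35.0 CPM in cKO. The part of these and of the higher fibroblast markers in the Tbx18 value was not tested.

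Among 27 partners, cofactors and corepressors of the members, 26 were tested, 3 rose and 5 fell, with a median log2 fold change of 0.02. Smarcd3, which encodes the SWI/SNF subunit BAF60C that links the complex to cardiac factors, rose from 61.6 to 101 CPM (log2 fold change 0.71, SE 0.08, adjusted p = 8.87e-05). Pdlim7, whose product binds TBX5 and TBX4, rose from 50.1 to 86.7 CPM (0.79, SE 0.16, adjusted p = 0.00568). The MADS-box genes Mef2d and Mef2c, whose products are partners of GATA4, fell by 0.36 (adjusted p = 0.000785) and 0.52 (adjusted p = 0.00168) on the log2 scale. Mef2a, of the same family and list, did not pass (log2 fold change −0.11, adjusted p = 0.339). By qPCR the study itself reported similar levels of MEF2 factors in hearts of both genotypes. Zfpm2, which encodes the GATA4 cofactor FOG2, fell by 0.36 (adjusted p = 0.0141). The share of the partners that passed, 8 of 26, compares with the 16.3% of all tested genes given above.

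Of 25 genes known to be activated by GATA4, NKX2-5 or TBX5, all were tested, 5 rose and 6 fell, with a median log2 fold change of −0.14, beside 8.25% higher and 8.03% lower among all tested genes. The largest change was a rise. Nppa, the atrial natriuretic peptide gene, rose from 114 to 1721 CPM, which was 3.92 (SE 0.32, adjusted p = 0.000121) on the log2 scale. It ranged from 102 to 123 CPM in controls and from 711 to 2432 CPM in cKO. Nppb, the brain natriuretic peptide gene, rose from 148 to 367 CPM (1.31, SE 0.10, adjusted p = 5.34e-06), and Ankrd1, a stress-responsive gene of the sarcomere, from 960.0 to 2067 CPM (1.11, SE 0.10, adjusted p = 1.44e-05). The adenosine receptor gene Adora1 fell from 17.1 to 11.1 CPM (−0.62, SE 0.14, adjusted p = 0.0113). The ventricular light chain gene Myl2, the cofactor gene Mef2c and the potassium channel subunit gene Kcne1 had log2 fold changes of −0.43, −0.52 and 0.51. The genes of this list thus moved in both directions.

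All 6 working-myocardium genes known to be repressed by TBX2 or TBX3 were tested, and 2 rose and 3 fell, beside 16.3% of all tested genes that passed in either direction. Kcnj2, which encodes the inward rectifier channel of the resting potential, fell from 76.8 to 33.9 CPM (−1.18, SE 0.13, adjusted p = 7.59e-05), and Gja1 (connexin 43) fell by 0.31 (adjusted p = 0.00536) on the log2 scale. Nppa, which is in both lists, and Smpx (0.43, adjusted p = 0.016) rose. BMP signalling lies upstream of several members. Of 19 BMP ligand, receptor, SMAD and Id genes 17 were tested, and 8 had an unadjusted p under 0.05 in the edgeR test. By adjusted p 1 passed, also to be read beside that 16.3%. This was Id2, at 0.54 (SE 0.14, adjusted p = 0.0191) on the log2 scale, which is also among the genes known to be activated by TBX5.

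**Figure D5:**
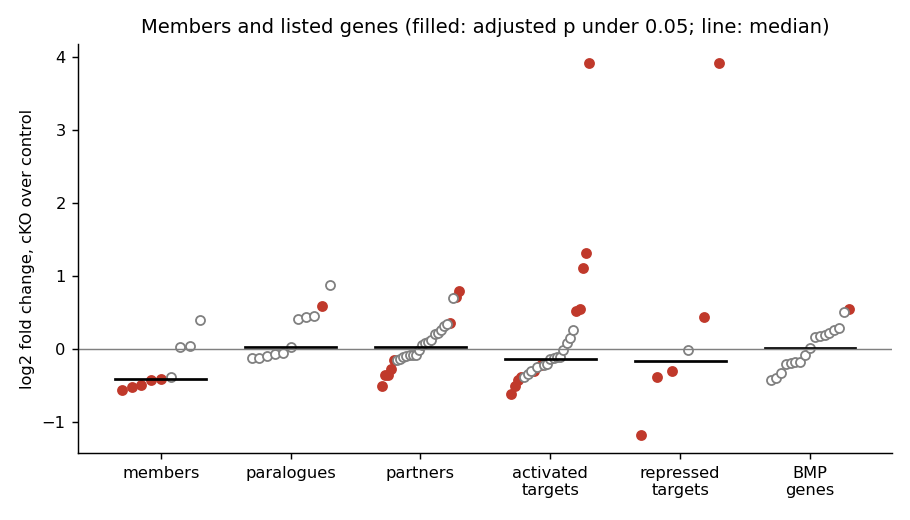
Log2 fold change of cKO over control for the tested members and the tested genes of 5 related lists, with filled points for an adjusted p under 0.05 and a line at each median. The median of the members lies at −0.42 and the medians of the lists between −0.16 and 0.02, and the point near 4 is Nppa, which is drawn in both target lists.

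For each member that passed, the genes whose level followed it most closely were sought among 11010 genes with a mean of at least 5 CPM. Likeness was the root mean square difference over the 9 libraries between log2 CPM values centred on their means. Closest to Gata6 were Cdip1 (0.05) and Rcsd1 (0.05), to Tbx5 Ankrd33b (0.05) and Egflam (0.07), to Tbx20 Stxbp3 (0.04) and BC067074 (0.05), to Hand2 Pank4 (0.06) and Ak1 (0.06), and to Tbx3 Tceanc (0.09) and Tceal1 (0.12), where the numbers in parentheses are differences on the log2 scale. Since the members that passed were lower in cKO and the genotype difference enters this measure, genes alike to them were lower in cKO by the way they were chosen.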

How the data were processed

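Poly(A) RNA of 9 P7 ventricle samples was sequenced from stranded libraries as single-end 75-base reads. The authors deposited a table of raw counts per Ensembl gene, and per the labels the processing notes name STAR 2.4.2a, HTSeq 0.6.1 and mm10. Which annotation release was used, and whether HTSeq counted by strand, is not given in the sources used here. The table held 0 other sample columns. Symbols, coordinates and exon lengths came from GENCODE M21 (GRCm38), in which 36429 of 38293 identifiers were found, carrying 99.82% of the counts.

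Genes were filtered with filterByExpr (minimum count 10), scaled by TMM and tested with the robust quasi-likelihood F test of edgeR 4.0.16 in R 4.3.3, with genotype as the only term. Tests were two-sided, adjusted by Benjamini-Hochberg over the 15318 genes tested, with a threshold of 0.05. Fold changes over 1.5 follow the study's criterion, for which it used DESeq2. The methods text names fewer controls than the labels and a legend of the study, and the 5 labelled ones all entered. The study counts n as hearts and as biological replicates, so p-values measure the spread between hearts. The code was tested on simulated data.

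The members and gene lists were chosen with earlier results of these data known. Named are all 10 members, of each list up to 5 genes past both thresholds by fold change and then up to 3 past the test by adjusted p, tested neighbours within 20 kb, and the 2 most alike genes of each member past the test. The values of 1 listed gene are left out of the text. Marker genes that passed were named after their values were seen. Mef2a, which did not pass, was named beside Mef2c and Mef2d. Alternatives were DESeq2 1.42.0, RLE and upper-quartile scaling, no filter or a mean of at least 1 CPM, the replicate number as a block, the library set or sex (from Xist) as a term, the Rps3a3-low libraries alone, each library left out, and an adjusted p under 0.01. The Rps3a3-high libraries alone, and control replicate 1 left out together with cKO replicate 2, were added after seeing the data. Same-numbered libraries did not deviate together throughout (correlations of 0.01 to 0.23 over 4 pairs). Ratios between members were picked after the levels had been seen, so no p-value is reported for them.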

Additional observations from a re-analysis of the deposited data

Results flagged for a closer look

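In each group of 4 or 5 libraries, the highest and lowest values of the 10 genes were compared with the rest of the group (20 groups of values, of which chance singles out about 1 in 20). In cKO replicate 2, Nkx2-5 stood at 46.5 CPM, and its gap to the next library took up 0.951 of the range of the group. In the same library Tbx2 was the highest of its group at 16.8 CPM (0.832 of the range). In cKO replicate 1, Gata5 was the lowest of its group at 0.124 CPM (0.832 of the range), which rests on 4 counts. Without cKO replicate 2 the log2 fold change of Nkx2-5 moved from 0.40 to 0.06 and that of Tbx2 from 0.04 to −0.06, and without cKO replicate 1 that of Gata5 moved from −0.39 to −0.10. None of the 3 genes passed the test with or without these libraries.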

How the results depend on the processing

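Gata6, Tbx5 and Hand2 were lower past the threshold in 19 of 19 other fits, Tbx20 in 18 (not in the 5 Rps3a3-low libraries) and Tbx3 in 6. The number of members past the test was 4 to 5 with each library left out in turn, and 3 in the Rps3a3-low libraries alone. Members past both thresholds numbered 2 (Tbx5 and Hand2) with the library set as a term, 1 (Hand2) in the Rps3a3-low libraries, and 0 to 1 with a library left out, which was Tbx5 without control replicate 3 or 4 or cKO replicate 1 or 3, and Hand2 without cKO replicate 2. Among listed genes the numbers past the test that moved by over 1.5 times were these. With DESeq2 they were 2 paralogues and 3 BMP genes, with sex as a term 2 paralogues, and with the library set as a term 2 BMP genes. In the Rps3a3-low libraries they were 2 partners, 5 activated and 2 repressed targets and 0 BMP genes, and at an adjusted p under 0.01 they were 4, 7, 3 and 0. Without control replicate 1 and cKO replicate 2 together they were 2 paralogues and 0 BMP genes. Smaller shifts took the activated targets from 11 to between 10 and 14 (14 with DESeq2 or the library set as a term) and the partners from 8 to 6 or 7. With a library left out the numbers ranged from 9 to 11 for activated targets, 1 to 2 for paralogues (2 without control replicate 1), 5 to 7 for partners (5 without control replicate 5 or cKO replicate 3) and 0 to 3 for BMP genes (0 without cKO replicate 2 or 4, 2 without control replicate 2, 3 without cKO replicate 1). The replicate numbers did not pair the libraries, and with the replicate block 4 members (Tbx3 lost, adjusted p = 0.153) and 4 partners passed. Signs turned for 2 members near 0. Gata4 was at −0.0631 in the Rps3a3-low libraries, −0.0035 without control replicate 1 and cKO replicate 2, and −0.023 to 0.0643 with a library left out (below 0 without control replicate 4, cKO replicate 2 or cKO replicate 4). Tbx2 was at −0.0061 with the library set as a term, −0.0136 in the Rps3a3-high libraries, −0.0565 without that pair and −0.0601 to 0.0783 with a library left out (below 0 without control replicate 4 or cKO replicate 2). The cause was not tested. Fits on fewer libraries have less power. Gata5 and Hand1, at 25 counts or fewer per library, are limited by depth.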
